A study of Mus musculus with 10 samples.

Results

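Intronic regions of open chromatin that lay in unmasked sequence were examined in mouse sperm. Peak intervals of 10 libraries were merged where they overlapped by at least 1 bp, which gave 113493 merged regions, and 24763 of these held a peak in at least 2 libraries. On chromosomes 1 to 19, 9225 of them lay over 3 kb from every GENCODE M21 transcript start, inside a transcript and outside every exon. The regions described here are the 1175 of those 9225 with under 10% of their mm10 bases in lower case, the letters that mark masked repeats, and with no run of 10 or more CA or TG units. They made up 12.7% of the intronic regions and 4.74% of all 24763, and covered 436 kb.

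The libraries are ATAC-seq of mature sperm from the cauda epididymis, 1 per mouse, from wild type C57BL/6JRccHsd males that arrived at 3 weeks of age. F0 CD males (6 libraries) ate a chow maintenance diet with 14% protein, and F0 WD males (4 libraries) ate a Western diet with 40% of its energy from fat and 43% from carbohydrate, both for 6 months. The groups follow the sample titles, although 1 sentence of the label protocol gives the group sizes the other way round. Both groups shared the strain, the arrival age and the sperm preparation, in which sperm were released from the cut cauda into buffer.

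Introns hold many of the enhancers of mammalian genes, short stretches where transcription factors bind and nucleosomes are displaced. ATAC-seq finds such places because the Tn5 transposase inserts its adapters into exposed DNA. In sperm most histones are replaced by protamines and transcription has stopped, so open DNA there is read as what remains of, or is kept through, that packaging. A region without masked repeats can still hold tandem repetition that the masking missed, or be one of several similar copies, and both were therefore measured.

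The regions were 200 to 1409 bp wide (median 338 bp), and 664 of the 1175 (56.5%) held no masked base at all. The letters alone did not make them free of repetition. In 237 regions (20.2%) at least 50% of the 12-letter words occurred more than once in the same region, which is called tandem repetition here. A further 90 regions (7.66%) held no such repetition but had a copy elsewhere in mm10, an alignment of at least 100 bp at 80% identity or more, or of at least 80% of the region at 90% identity. The remaining 848 (72.2%) had neither and are called unique below, while all 1175 are called unmasked intronic regions. Because the words had to match exactly, repetition with changed letters can remain in regions called unique. Just inside the limit on masked bases lay regions in 4933411E02Rik (9.98%), Ctif (9.97%) and Gm49217 (9.91%), and just outside it lay regions in Nrp2, Map1b and Epb41l4a (10% each).

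Sequences around the strongest summit are shown first for regions that were found in all libraries, because the region with the highest median fold was among them. All are from the + strand of mm10. In the next 6 capitals mark 1 repeat unit, the one that best matched the unit after it. Sos2 (chr12:69654085-69654234) repeats a 51-bp unit and Dlgap2 (chr8:14306818-14306967) a 31-bp unit. The pair in D5Ertd579e (chr5:36661081-36661230 and chr5:36630504-36630653) repeat a 33-bp unit, Adam18 (chr8:24639101-24639250) a 14-bp unit and Pkp4 (chr2:59252924-59253073) a 23-bp unit.
Sos2: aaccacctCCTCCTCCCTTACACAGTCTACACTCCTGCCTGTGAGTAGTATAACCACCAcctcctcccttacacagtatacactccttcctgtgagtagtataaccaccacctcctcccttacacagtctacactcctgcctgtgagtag
Dlgap2: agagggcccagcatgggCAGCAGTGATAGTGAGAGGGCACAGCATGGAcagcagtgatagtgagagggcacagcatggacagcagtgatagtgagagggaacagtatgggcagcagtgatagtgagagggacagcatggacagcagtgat
D5Ertd579e, first region: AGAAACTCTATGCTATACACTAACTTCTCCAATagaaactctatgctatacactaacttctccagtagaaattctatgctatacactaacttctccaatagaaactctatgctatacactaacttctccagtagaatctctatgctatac
D5Ertd579e, second region: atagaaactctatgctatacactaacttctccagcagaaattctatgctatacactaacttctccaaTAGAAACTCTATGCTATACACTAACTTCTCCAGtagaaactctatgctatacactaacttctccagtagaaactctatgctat
Adam18: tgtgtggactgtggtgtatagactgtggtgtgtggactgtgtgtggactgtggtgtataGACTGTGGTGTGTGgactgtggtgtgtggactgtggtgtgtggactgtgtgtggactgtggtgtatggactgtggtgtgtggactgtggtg
Pkp4: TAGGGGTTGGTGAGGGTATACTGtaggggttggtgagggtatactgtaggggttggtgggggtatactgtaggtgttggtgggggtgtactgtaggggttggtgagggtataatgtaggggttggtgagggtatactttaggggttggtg
None of these units is shorter than 14 bp, and those of D5Ertd579e, Sos2 and Pkp4 each hold the word TATAC or its complement GTATA.

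Among the regions with copies elsewhere, those in Cmss1 (chr16:57391350-57391488) and Jarid2 (chr13:44869863-44870011) shared an identical run of 79 bp, in capitals, although they lie on different chromosomes.
Cmss1: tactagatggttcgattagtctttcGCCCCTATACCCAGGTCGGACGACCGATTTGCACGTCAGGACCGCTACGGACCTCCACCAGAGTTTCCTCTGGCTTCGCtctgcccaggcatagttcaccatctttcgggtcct
Jarid2: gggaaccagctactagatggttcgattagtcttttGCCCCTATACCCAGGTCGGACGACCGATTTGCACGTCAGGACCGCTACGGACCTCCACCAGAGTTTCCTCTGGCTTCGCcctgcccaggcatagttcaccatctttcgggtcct
The region in Cmss1 aligned with 16 other places of the genome and the region in Jarid2 with 22. No region of the 1175 matched the annotated ribosomal RNA sequences searched, a 5815-bp locus on chromosome 17 and 420 bp of Rn28s1, but the latter holds only part of its gene. Likeness to the rest of that gene, also of the regions in Cmss1 and Jarid2, was not tested. None matched the mitochondrial genome.

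Of the unique regions, 4 were found in all 10 libraries and are shown next with every GTA and TAC in capitals, the words whose share is described below. They lie in Copg2 (chr6:30804882-30805031), 4933411E02Rik (chr9:112445404-112445553), Myo3b (chr2:70143953-70144102) and Ostf1 (chr19:18600689-18600838).
Copg2: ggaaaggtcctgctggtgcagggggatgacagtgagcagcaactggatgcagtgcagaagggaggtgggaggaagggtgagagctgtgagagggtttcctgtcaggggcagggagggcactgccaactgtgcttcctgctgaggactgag
4933411E02Rik: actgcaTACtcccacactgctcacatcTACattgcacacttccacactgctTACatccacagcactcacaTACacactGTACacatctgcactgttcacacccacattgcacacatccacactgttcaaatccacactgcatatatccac
Myo3b: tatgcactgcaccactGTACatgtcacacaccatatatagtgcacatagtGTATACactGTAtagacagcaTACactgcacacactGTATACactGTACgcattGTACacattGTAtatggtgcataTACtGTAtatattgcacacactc
Ostf1: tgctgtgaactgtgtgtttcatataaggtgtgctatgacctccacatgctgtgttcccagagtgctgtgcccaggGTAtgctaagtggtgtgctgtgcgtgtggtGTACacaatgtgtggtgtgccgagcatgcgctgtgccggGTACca
The stretch in Myo3b held 39 bases in these words and the stretch in Copg2 held 0. Recurring 12-letter words took up 29.0% of the whole region in Myo3b and 24.1% of that in 4933411E02Rik, under the 50% used here.

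The 5 regions that passed the unadjusted test between diets are shown in the same way. Those more often found in F0 WD lie in Cerk (chr15:86170049-86170198), Slc22a3 (chr17:12447206-12447355), Vps41 (chr13:18849500-18849649) and Col27a1 (chr4:63242379-63242528), and the region more often found in F0 CD lies in Gm30373 (chr9:43960469-43960618).
Cerk: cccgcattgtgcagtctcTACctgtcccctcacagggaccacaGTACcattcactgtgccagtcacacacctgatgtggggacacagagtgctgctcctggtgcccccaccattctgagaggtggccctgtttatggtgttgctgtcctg
Slc22a3: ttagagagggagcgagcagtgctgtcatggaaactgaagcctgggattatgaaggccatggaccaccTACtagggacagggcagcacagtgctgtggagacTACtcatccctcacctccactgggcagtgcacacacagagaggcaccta
Vps41: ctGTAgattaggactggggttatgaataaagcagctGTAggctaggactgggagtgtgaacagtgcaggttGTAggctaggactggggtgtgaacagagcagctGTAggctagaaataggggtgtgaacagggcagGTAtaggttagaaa
Col27a1: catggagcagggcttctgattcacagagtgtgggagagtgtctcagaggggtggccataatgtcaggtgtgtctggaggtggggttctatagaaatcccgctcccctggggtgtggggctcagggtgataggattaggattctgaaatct
Gm30373: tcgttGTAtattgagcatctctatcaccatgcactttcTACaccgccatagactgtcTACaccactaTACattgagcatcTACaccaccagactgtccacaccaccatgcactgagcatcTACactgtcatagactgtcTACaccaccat
All 5 were unique by the measures above, although the stretches in Vps41 and Gm30373 show similar words at intervals. Recurring 12-letter words took up 18.7% of the region in Vps41 and 6.58% of the region in Gm30373, and 0% of the other 3.

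Most of the 1175 regions were found in few libraries. A peak was present in exactly 2 libraries for 805 regions (68.5%), in 3 for 171 (14.6%), and in all 10 for 20 (1.70%). Of the intronic regions with CA or TG runs, 38.6% were found in exactly 2 libraries, and of the other intronic regions with repeats, 43.9%. Of distal intergenic regions free of masked repeats, 70.0% were. Peaks were weak: the median fold over background, as the peak caller gave it at the summit, was 3.73 over the 1175 regions (range of the regions' medians 2.50 to 23.8), and only 12 regions had a median fold of 6 or more. The median number of reads at the summit, solved from the fold and the p-value of each peak, was 15.5 (10 to 66.5 per region).

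Tandem repetition became more common with the number of libraries. It was found in 10.7% of the regions present in 2 libraries, 22.8% in 3, 38.7% in 4 and 65.1% in 5, reached 76.0% in 7 and was 50% in all 10. The share of unique regions fell from 82.4% in 2 libraries to 25.6% in 5 and 20% in 10. The 20 regions in all 10 libraries were 10 with tandem repetition, 6 with copies elsewhere and 4 unique. Regions in more libraries were also wider, with a median of 312 bp in 2 libraries and 556 bp in 8 to 10, and the share measured over whole regions could follow their width. In windows of a fixed 200 bp around the summit tandem repetition was found in 9.94% of regions in 2 libraries, 28.8% in 3 to 4, 58.9% in 5 to 7 and 46.8% in 8 to 10. Over the 1175 regions Spearman's rho of the number of libraries was 0.49 with the share of recurring words, 0.51 with width, 0.24 with median fold and 0.03 with GC content. These are descriptions, since all regions come from the same 10 libraries. The highest GC contents were 71.9% in Heatr4 (4 libraries), 67.9% in Rbfox3 (2) and 67.5% in Nrg2 (2).

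**Figure D1:**
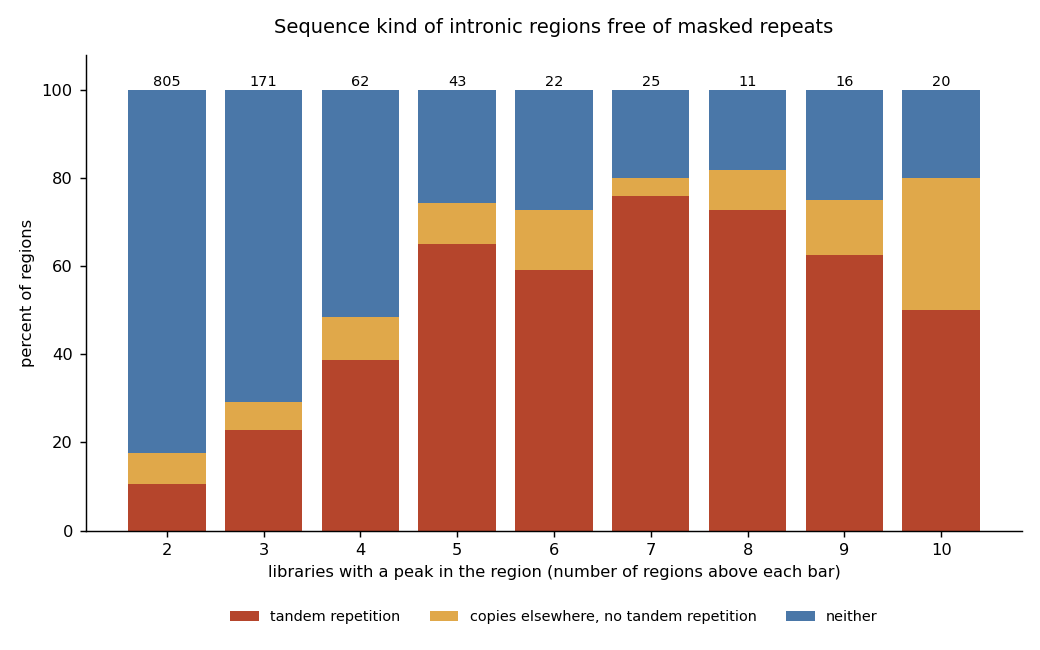
Percent of unmasked intronic regions (y axis) that held tandem repetition, that had copies elsewhere without tandem repetition, or that had neither, by the number of libraries with a peak (x axis, 2 to 10). Unique regions fell from 82.4% of the 805 regions in 2 libraries to 20% of the 20 regions in all 10, and tandem repetition was highest, at 76.0%, among the 25 regions in 7 libraries.

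The 3 kinds of region differed in several ways. Regions with tandem repetition were found in a mean of 4.18 libraries, regions with copies in 3.33 and unique regions in 2.4, and 37.1%, 18.9% and 3.77% of them were found in 5 or more. Their median folds were close, at 3.93, 3.56 and 3.68. The CpG ratio, the number of CpG over that expected from the base composition, had a median of 0.0563 in the tandem kind, 0.107 in the copies and 0.160 in unique regions. Of the regions with copies elsewhere 61.1% lay in protein-coding genes, against 88.6% of the tandem kind and 89.0% of unique regions. The number of other places was 2 at the median of regions with a copy and reached 142, and 25 regions had 10 or more. Reads from the copies of a region cannot be told apart where the copies are identical.

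The repeat units found were mostly of minisatellite length, within limits set by the rule and by the search. In the 237 regions the unit that gave the best match between neighbouring letters had a median length of 27 bp (quartiles 18 and 37 bp, shortest 6 bp), and 208 regions had a unit of 10 to 60 bp. Only 6 units were under 10 bp. Neighbouring units were identical at a median of 75% of their bases, and a region held a median of 15.6 units. In the 88 regions with tandem repetition that were found in 5 or more libraries the median unit was 26 bp.

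Base composition set the regions apart from the introns they lie in. For comparison all 200-bp windows of the autosomes that met the same rules on transcripts, exons, starts and repeats were taken from mm10, 1204198 windows or 241 Mb. The 200 bp around a summit, here and below, were not themselves held to these rules and could run past the edge of a region. The 200 bp around the strongest summit had a median GC content of 51.5%, against 44.5% over the windows (quartiles 39.5% and 49.0%), and 65.1% of the regions but 21.6% of the windows had a GC content of at least 50%. The median CpG ratio was 0.138 in the regions and 0.167 in the windows. CpG island-like sequence, with a GC content over 50% and a CpG ratio over 0.6, was found at 1.79% of the summits and in 0.321% of the windows. Tandem repetition was found at 18.9% of the summits and in 0.53% of the 120429 windows examined for it.

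The enrichment in GC was local to the summit. In unique regions GC content was 51.7% in the 50 bp after the summit and 45.5% in the outermost 50 bp of a 600-bp flank on either side. In regions with tandem repetition it was 53.4% and 44.1% after the summit. Over the same distance the words AAA and TTT fell from 53.8 per 1000 positions in the flank to 17.2 at the summit of unique regions, and from 60.0 to 3.63 in the tandem kind. The part of Tn5 preference or amplification in this composition was not tested.

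**Figure D2:**
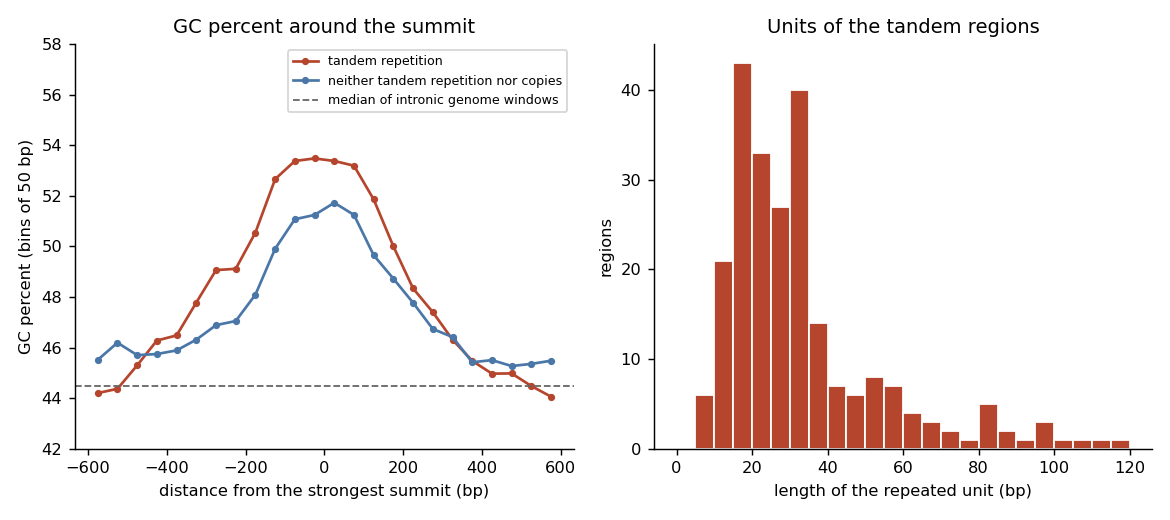
Left, mean GC content in percent (y axis) by distance from the strongest summit in bp (x axis), in 50-bp bins, for unique regions and for regions with tandem repetition, with the median of genome windows as a dashed line. Right, number of regions (y axis) by length of the tandem unit in bp (x axis). GC content was highest in the bins beside the summit in both kinds, at 51.7% and 53.5%, and unit lengths centred on a median of 27 bp.

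Beyond GC content, short words differed from intronic sequence of the same GC content. In the 200 bp around the summits of the 848 unique regions GTA or TAC made up 29.1 per 1000 positions, against 18.1 in genome windows weighted to the same GC content (over 5 classes of GC), a ratio of 1.61. CAC or GTG made up 57.8 against 39.7 (ratio 1.46), ATA or TAT 26.1 against 17.5 (ratio 1.49), and ACA or TGT 56.9 against 40.7 (ratio 1.40). Fewer were found of AAA or TTT, at 18.3 against 31.3 (ratio 0.585), and of CGA or TCG, at 4.04 against 5.71 (ratio 0.708). In regions with tandem repetition GTA or TAC made up 43.7 against 17.1 (ratio 2.56), and in the regions found in 5 or more libraries the ratio was 2.69. The same word had a ratio of 1.76 in distal intergenic regions free of masked repeats, 1.84 in intronic regions with CA or TG runs and 2.31 in other intronic regions with repeats, so it was not particular to the regions described here.

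Among 1765 words of 6 letters found in at least 2% of genome windows of the same GC content, the 3 with the highest ratio in unique regions held TATAC or its complement. The word CTATAC or its complement GTATAG was in 13.9% of the summit windows of unique regions and in 3.99% of genome windows, a ratio of 3.49. AGTATA was in 11.7% against 3.96% and GGTATA in 10.3% against 3.51%. Of words without this core TGTACA was in 12.9% against 4.4%, and AGTGTA in 20.5% against 7.62%. At the other end AATTAA was in 1.18% of unique regions and in 5.08% of the windows, and CCGGAA in 0.590% and 2.58%. Distal intergenic regions free of masked repeats held CTATAC in 12.8% of their summit windows. These shares come from windows of mm10 and carry no replicate error, and the ratios are descriptions of the sequence under the peaks.

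Over the 1175 regions, recognition words of transcription factors were mostly less common than in the genome at the same GC content. In summit windows of 200 bp, searched on both strands, 18 of 22 motifs were in a smaller share of the 1175 regions than of genome windows weighted to their GC content. The core of CTCF, the insulator protein, was in 0 of 1175 regions, which allows a share of up to 0.255%, and in 0.266% of genome windows at that GC content. AP-1 sites, searched as TGANTCA, were in 51 regions (4.34%) against 6.30%. AGGTCA, the core of nuclear receptor sites, was in 153 (13%) against 15%, the E-box CAGCTG in 9.79% against 15.4%, and GGAATG, bound by TEAD factors, in 110 (9.36%) against 12.5%. The ZIC word CAGCAGG was in 72 (6.13%) against 10.0%, the GC box GGGCGG in 25 (2.13%) against 4.10%, and the homeobox word TAATTA in 10 (0.851%) against 2.52%.

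The remaining words were rarer or closer to the genome. CACGTG was in 3.15% of the regions against 3.29%, the SOX word ACAATGG in 3.23% against 2.87%, the forkhead word TGTTTAC in 2.72% against 2.18%, the RUNX word TGTGGTT in 2.64% against 4.22% and the GATA word AGATAAG in 1.28% against 2.31%. The EGR word GTGGGCG was in 1.11% against 1.13%, and the NRF1 word GCGCATGC in 6 regions (0.511%) against 0.279%. The RFX word GTTGCCAT was in 0.340% against 0.692%, the YY1 word AAGATGGC in 0.255% against 1.21%, the ETS word CCGGAAG in 0.170% against 1.15%, the octamer ATGCAAAT in 0.0851% against 0.698% and the CRE TGACGTCA in 0.0851% against 0.183%. The NFI palindrome was in 0.0851% against 0.241% and the androgen response element in 0.170% against 0.148%. A match is a run of letters and not a bound site.

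Per library, between 254 and 492 of the 1175 regions held a peak. In F0 CD libraries 1 to 6 the share was 22.0%, 41.9%, 31.0%, 26.9%, 25.3% and 32.8%, and in F0 WD libraries 1 to 4 it was 30.6%, 23.1%, 27.9% and 21.6%. F0 CD 2, the library with the longest list (29532 peaks), had the highest share, and F0 WD 4, with the shortest (13366 peaks), the lowest. The lists held no read counts, and of depth the labels give only a minimum that all libraries passed after quality control. The fewest reads at any summit were 9 to 13 per library, and the lowest local background was 2.11 to 4.42 reads.

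Against other intronic regions, the 1175 unmasked ones were found less often and had weaker peaks. A mean of 28.3% ± 6.14 (SD, n = 10 libraries) held a peak, against 39.2% ± 10.5 of intronic regions with CA or TG runs, and the difference of -10.9 points had the same sign in 10 of 10 libraries (exact sign-flip permutation test over libraries, two-sided, p = 0.00195, adjusted over 9 tests 0.00439). Against other intronic regions with repeats (35.9% ± 9.29) the difference was -7.64 points, also lower in 10 of 10 libraries (exact permutation test, adjusted p = 0.00439). The median fold was 3.8 ± 0.290 against 4.19 ± 0.406 for CA or TG runs (lower in 10 of 10 libraries, exact permutation test, adjusted p = 0.00439) and 3.97 ± 0.333 for the other repeats (lower in 8 of 10 and equal in 2, exact permutation test, adjusted p = 0.0117). The median number of reads at the summit was 15.7 ± 1.89, against 17.4 ± 1.65 (exact permutation test, adjusted p = 0.00439) and 16.6 ± 1.84 (lower in 8 of 10, exact permutation test, adjusted p = 0.0117). With the 848 unique regions in place of the 1175, an alternative chosen after seeing the data, the differences in the share were -15.2 points against CA or TG runs and -11.9 points against other repeats, and that in reads against other repeats was -1.5 (exact permutation test, adjusted p = 0.00293 each). Since every region was required to hold a peak in at least 2 of 10 libraries, the share cannot fall under 20% on average. With regions required in at least 3 libraries all 6 of these differences kept their sign and missed the threshold, and the share with a peak differed from that of CA or TG runs by -4.97 points (exact permutation test, adjusted p = 0.211).

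Distal intergenic regions free of masked repeats, 1099 in all, gave the closest values to the intronic ones. The difference in the share with a peak was 0.00852 points with an SD of 1.66 over the 10 libraries (exact permutation test, p = 0.992, adjusted p = 1). The median fold differed by -0.0145 ± 0.131 (exact permutation test, p = 0.812, adjusted p = 1) and the median summit reads by 0 ± 0.471 (exact permutation test, p = 1, adjusted p = 1). They were also alike in GC content at the summit (median 51.5% in both) and in tandem repetition (17.1% of distal regions), while 68.4% of them and 72.2% of the intronic regions were unique. None of the 9 differences between classes differed between the diets (exact permutation test of each, adjusted p = 1).

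**Figure D3:**
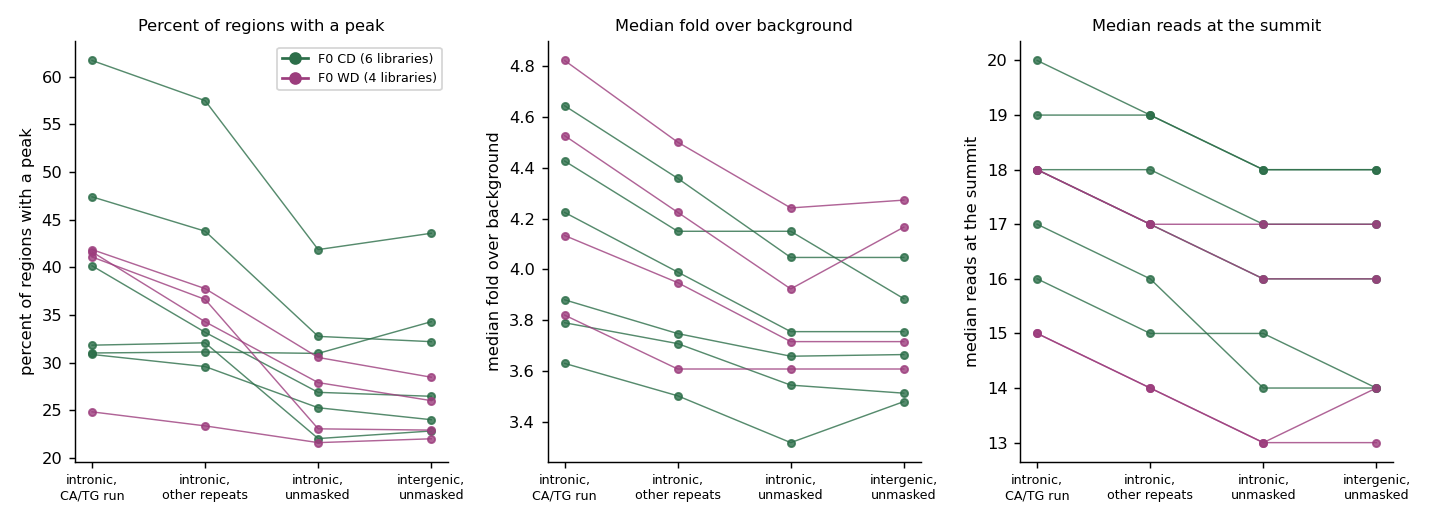
Percent of regions with a peak, median fold at the summit and median reads at the summit (y axes of the 3 panels) in each of the 10 libraries, for unmasked intronic regions and the 3 classes they were compared with (x axis); points are libraries, coloured by diet, and each line joins the values of 1 library. The unmasked intronic and distal classes sit at about the same level, with a mean of 28.3% each, under the intronic regions with CA or TG runs at 39.2%.

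Regions present in all 10 libraries gave the highest values. In intron 1 of 9 of Cmss1, named as a homolog of a ribosomal small subunit protein, the region at chr16:57391350-57391766 had folds of 23.8, 23.4, 26.4, 21.3, 25.2 and 23.8 in F0 CD and 26.5, 23.6, 27.3 and 22.9 in F0 WD. All 10 libraries were within a narrow range, and the groups overlapped. This region had a GC content of 63.1% and a CpG ratio of 0.942. In intron 2 of 22 of Sos2, a guanine nucleotide exchange factor for Ras, the region at chr12:69653962-69654410 had folds of 13.1, 22.3, 12.2, 18.9, 16.6 and 15.5 in F0 CD and 16.5, 18.6, 16.7 and 13.7 in F0 WD. In intron 3 of 15 of Dlgap2, a scaffold protein of the postsynaptic density, the region at chr8:14306684-14307196 had folds of 12.4, 16.1, 19.2, 17.4, 12.4 and 14.3 in F0 CD and 17.2, 15.5, 14.8 and 14.5 in F0 WD. In both the F0 WD values lay inside the range of F0 CD.

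In intron 2 of 23 of Gphn, gephyrin, which anchors inhibitory neurotransmitter receptors, the region at chr12:78350810-78351146 had folds of 12.5, 15.2, 11.9, 11.3, 16.4 and 10.8 in F0 CD and 14.3, 9.89, 13.3 and 10.3 in F0 WD. It aligned with 19 other places. The region in intron 3 of 17 of Jarid2, a cofactor of the Polycomb repressive complex PRC2, at chr13:44869835-44870118, had folds of 5.02, 6.75, 8.09, 5.37, 8.06 and 6.79 in F0 CD and 10.2, 9.32, 6.39 and 6.34 in F0 WD. Here the highest values were in F0 WD 1 and 2, and the others overlapped. Its CpG ratio of 0.996 was the highest of the 1175, ahead of Cmss1 and of a region annotated to Fgfr2 (0.8). Across these 3 regions with copies the summits of the 10 libraries lay within 17 to 20 bp of each other. Over all unmasked intronic regions in 5 or more libraries the median span of the summits was 227 bp.

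The pair in intron 2 of 8 of D5Ertd579e shared its 33-bp unit and lay on the same chromosome. At chr5:36660862-36661682 folds were 9.95, 10.4, 6.82, 10.2, 8.41 and 8.45 in F0 CD and 9.29, 7.07, 6.34 and 6.79 in F0 WD. At chr5:36630381-36630745 they were 6.83, 7.23, 4.42, 8.30, 5.82 and 7.51 in F0 CD and 6.50, 8.68, 7.85 and 6.16 in F0 WD. The highest library of the first region was in F0 CD and that of the second in F0 WD, and the groups overlapped in both. Letters 33 bp apart were identical at 90.6% and 96.1% of positions, and each region aligned with 1 other place.

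Weaker regions in all 10 libraries had folds of about 3 to 9. In Adam18, which encodes a sperm surface protein of the ADAM family, a region in intron 13 of 19 (chr8:24638954-24639609) had folds of 3.60 to 7.01 in F0 CD and 4.95 to 7.28 in F0 WD. In Pkp4, a plakophilin of cell junctions, a region in intron 2 of 21 (chr2:59252841-59253187) had folds of 4.79 to 8.67 in F0 CD and 4.24 to 6.64 in F0 WD. In the antisense transcript Gm21847 a region with 6 full copies (chr5:15552274-15552674) had folds of 4.41 to 6.48 and 5.30 to 7.19. Others with tandem repetition lay in Kalrn, Rab8b, Slc9a9 and in Scn8a, a voltage-gated sodium channel, where folds were 4.19 to 5.39 in F0 CD and 4.22 to 5.6 in F0 WD.

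Of the unique regions in all 10 libraries the strongest lay in intron 20 of 23 of Copg2, a subunit of the COPI coat of transport vesicles. At chr6:30804756-30805776 folds were 6.05, 4.05, 5.09, 6.32, 6.14 and 4.22 in F0 CD and 3.72, 7.58, 5.74 and 4.24 in F0 WD. F0 WD held both the lowest and the highest of the 10 values. A second region in the same intron, chr6:30804312-30804681, held a peak in F0 CD 2, 3 and 4 and in F0 WD 3 (folds 5.20, 4.61, 3.87 and 5.71). The region in 4933411E02Rik, a lincRNA, had folds of 2.90 to 8.45 in F0 CD and 3.61 to 5.68 in F0 WD. In Myo3b, an unconventional myosin, folds were 3.23 to 6.57 and 3.18 to 7.08. In intron 2 of 10 of Ostf1, chr19:18600550-18600958, they were 3.68, 3.76, 3.65, 3.30, 4.76 and 4.69 in F0 CD and 3.06, 4.98, 3.24 and 3.23 in F0 WD. The groups overlapped in all 4. Summits of the 10 libraries spanned 601 bp in Copg2, 471 bp in 4933411E02Rik, 292 bp in Myo3b and 232 bp in Ostf1. Folds of different libraries can therefore come from different places of a region.

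**Figure D4:**
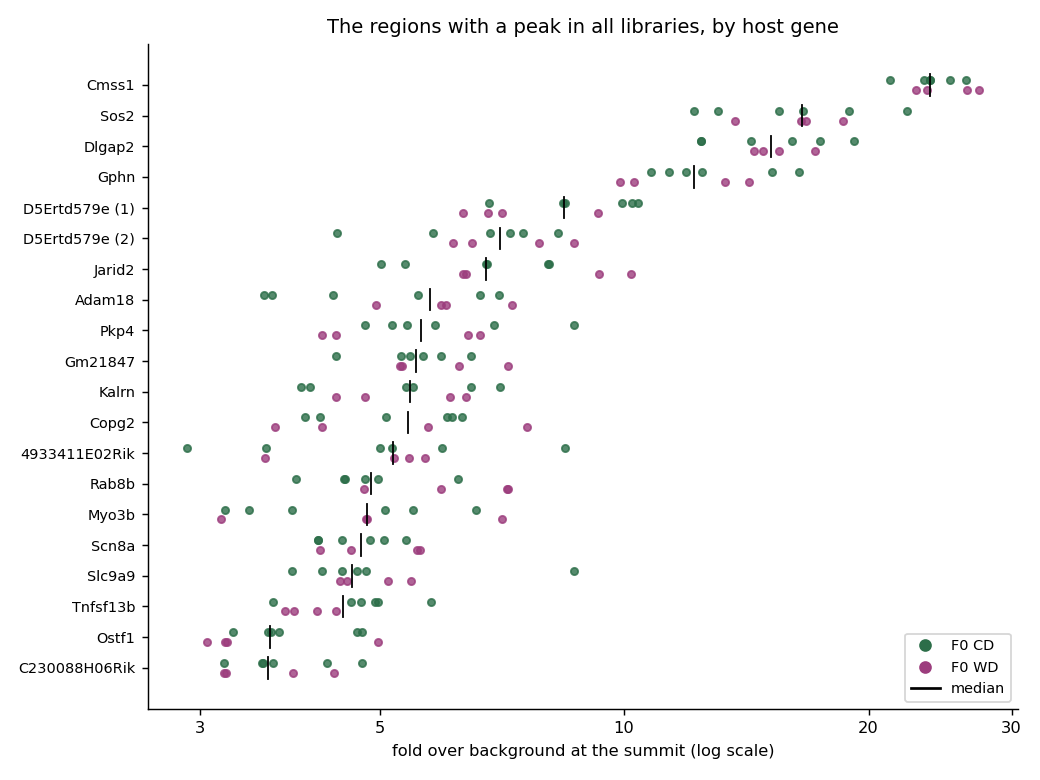
Fold over background at the summit (x axis, log scale) in each of the 10 libraries for the 20 unmasked intronic regions found in all of them (y axis, named by host gene); points are libraries, coloured by diet, and the bar is the median. The regions in Cmss1, Sos2, Dlgap2 and Gphn stand above the rest, and F0 CD and F0 WD points overlap in every row.

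Between the diets none of 4 differences over these regions passed its test. The share with a peak was 30.0% ± 7.0 (SD, n = 6) in F0 CD and 25.8% ± 4.17 (n = 4) in F0 WD, a difference of -4.18 points (exact permutation test over 210 groupings, two-sided, p = 0.343, adjusted over 4 tests 0.457). The share of a library's peaks that lay in these regions was 1.93% ± 0.140 and 1.82% ± 0.0771 (difference -0.107, exact permutation test, p = 0.181, adjusted p = 0.457). The median fold was 3.75 ± 0.312 and 3.87 ± 0.279 (difference 0.127, exact permutation test, p = 0.524, adjusted p = 0.524). Pairs of libraries shared a mean of 0.188 of their regions (Jaccard index, range 0.146 to 0.244), against 0.272 over all 24763 regions. Pairs of the same diet shared 0.189 and pairs of different diets 0.186, a difference of 0.00247 (exact permutation test, one-sided, p = 0.305, adjusted p = 0.457).

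A peak was found in both diets for 736 regions (62.6%), in F0 CD libraries alone for 350 (29.8%) and in F0 WD libraries alone for 89 (7.57%). Over all 24763 regions these shares were 72.9%, 21.8% and 5.26%. The groups held 6 and 4 libraries, and these shares were not tested.

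The test of single regions made 5 calls. Fisher's exact test of the number of libraries with a peak gave an unadjusted p under 0.05 for 4 of the 1175 regions (0.340%) in the direction of F0 WD, against 0.553% of all regions tested, and for 1 (0.0851%) in the direction of F0 CD, against 0.468%. Both shares were under the background, but a region in exactly 2 libraries cannot be called (smallest p 0.133, Fisher's exact test). Such regions made up 68.5% of the 1175 and 45.7% of all regions. The 4 and 1 calls thus came from the 370 regions in 3 or more libraries. Over all regions 137 and 116 calls came from 13445 such regions. The shares over all regions therefore do not compare like with like. With Benjamini-Hochberg adjustment over 24763 regions no region passed, and the smallest adjusted p among the 1175 was 1. The smallest p that 6 against 4 libraries can give is 0.00476.

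The 4 regions more often found in F0 WD each held a peak in 3 of 4 F0 WD libraries and in 0 of 6 F0 CD libraries (Fisher's exact test, unadjusted p = 0.0333 each). In intron 1 of 12 of Cerk, ceramide kinase, chr15:86170015-86170328, folds were 5.11, 2.93 and 4.53 in F0 WD 1, 2 and 3, from 21, 10 and 14 reads at the summit. In intron 5 of 9 of Slc22a3, an organic cation transporter that is imprinted in the placenta, chr17:12447101-12447387, folds were 3.48, 4.57 and 3.56 in F0 WD 1, 2 and 4, from 14, 14 and 18 reads. In intron 22 of 28 of Vps41, which takes part in fusion with lysosomes, chr13:18849483-18849878, folds were 3.63, 3.96 and 4.02 in F0 WD 1, 2 and 3, from 16, 12 and 13 reads. In intron 5 of 60 of Col27a1, a fibrillar collagen, chr4:63242112-63242687, folds were 2.86, 2.84 and 3.59 in F0 WD 2, 3 and 4, from 10, 10 and 16 reads. Values in the libraries without a peak are not known, since the lists hold only what passed the caller's threshold, and several of these summits were at or within a few reads of the fewest that made a peak. Summits of the libraries with a peak spanned 137 bp in Cerk, 12 bp in Slc22a3, 184 bp in Vps41 and 401 bp in Col27a1. F0 WD 2 had a peak in all 4 regions, and without it none was called.

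The region more often found in F0 CD lay in intron 1 of 2 of Gm30373, a lincRNA, at chr9:43960417-43960974, with a peak in 6 of 6 F0 CD libraries and 1 of 4 F0 WD libraries (Fisher's exact test, unadjusted p = 0.0333). Folds were 2.82, 4.63, 3.05, 3.63, 3.11 and 3.31 in F0 CD and 3.77 in F0 WD 3. The F0 WD value lay inside the range of F0 CD. The next regions by p missed the threshold. Those in Cdc123, Sun3, Hs6st3 and Gm21847 had a peak in 4 of 6 F0 CD libraries and in no F0 WD library (Fisher's exact test, p = 0.0762 each). In the other direction a region in Trappc9 had a peak in F0 WD 1 and 4, with folds of 4.34 and 5.09 (Fisher's exact test, p = 0.133).

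The 1175 regions lay in introns of 952 genes, and 795 of these genes held 1 region each. Protein-coding genes held 1020 regions (86.8%) and lncRNA genes 143. The first intron held 333 regions (28.3%), against 28.8% of intronic regions with CA or TG runs and 30.5% of other intronic regions with repeats. The median intron was 36.1 kb long, the median host gene 158 kb, and the median distance to a transcript start 15.7 kb, close to the 15.9 and 15.8 kb of the other intronic classes. Per 1000 genome windows that met the same rules, from 0.681 regions on chromosome 10 to 1.24 on chromosome 15 were found.

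Hosts with several regions were of different kinds. C230088H06Rik, a lincRNA on chromosome 4, held 7 regions, found in 2 to 10 libraries, and 0 of these were unique. Gm21847 held 5 regions on chromosome 5, found in 4 to 10 libraries, and again 0 were unique. Gm20388 held 7 regions, 6 of them unique, but its annotated transcript spans 4435 kb and runs over other genes. Fgfr2, a fibroblast growth factor receptor, held 6 regions, 5 of them unique and each in exactly 2 libraries, under an annotated span of 2961 kb that also covers its neighbours. Atp8a2, a phospholipid flippase, held 4 unique regions, each in exactly 2 libraries.

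Lists of genes were compared by the share of regions they held, beside the share of other intronic regions and of genome windows. Genes of neuronal adhesion and the synapse held 21 regions in 14 of 49 genes, 1.79% of the regions, against 3.59% of other intronic regions and 5.09% of windows. Examples are Dlg2, a synaptic scaffold, with a region in 9 libraries, Erc2, of the presynaptic active zone, with a region in 5, and Sdk1, a sidekick adhesion molecule, with a region in 4. Axon guidance genes held 11 regions (0.936%, against 1.03% and 1.55%), among them Sema3a in 4 libraries, Sema6d in 3 and Unc5d in 2. Ion channels and neurotransmitter receptors held 26 regions in 21 of 48 genes (2.21%, against 2.05% and 2.64%). Examples are Scn8a in 10 libraries, Ryr2, the ryanodine receptor, in 9, and Grin2a, an NMDA receptor subunit, in 7.

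Developmental transcription factors held 18 regions in 14 of 70 genes (1.53%, against 2.66% and 2.09%), with Sox5 in 7 libraries and Myt1l and Lef1 in 3 each. Genes of Wnt, BMP, FGF, Notch and Hedgehog signalling held 14 (1.19%, against 0.882% and 1.00%), 6 of them annotated to Fgfr2. The most libraries there were 6, in Ror1, a receptor of Wnt signals, whose second region was in 3, as was the most frequent of Ror2. Genes of energy metabolism and insulin signalling held 11 regions in 8 of 61 genes (0.936%, against 0.696% and 0.624%). Examples are Prkag2, a subunit of AMP-activated protein kinase, with 3 regions, and the transporter genes Slc2a9 and Slc2a13. None of the 11 was called in either direction. The highest number of libraries among them was 4, in Slc2a9.

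The 52 genes of the list for spermatogenesis and sperm function held 0 of the 1175 regions, against 0.298% of other intronic regions and 0.288% of windows. The list does not hold every gene of the germ line. Outside it Adam18, described above, Sun3, Tdrd9 and Topaz1, which act in male germ cells and were picked after their values were seen, each held a region, in 10, 4, 3 and 5 libraries. Genes of the epididymal epithelium held 1 region (Aqp9) and immune cell genes 1 (Ikzf1), each in 2 libraries. Imprinted genes held 12 regions in 7 of 49 genes, 1.02% of the regions against 0.261% of other intronic regions and 0.291% of windows. They were 4 in Trappc9, 2 each in Copg2 and Slc22a3, and 1 each in Dcn, Herc3, Kcnk9 and Kcnq1, 6 of the 12 were unique, and 1, in Slc22a3, was called in the direction of F0 WD. Trappc9 and Kcnk9 are neighbours, and regions of 1 gene are not independent of each other.

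**Figure D5:**
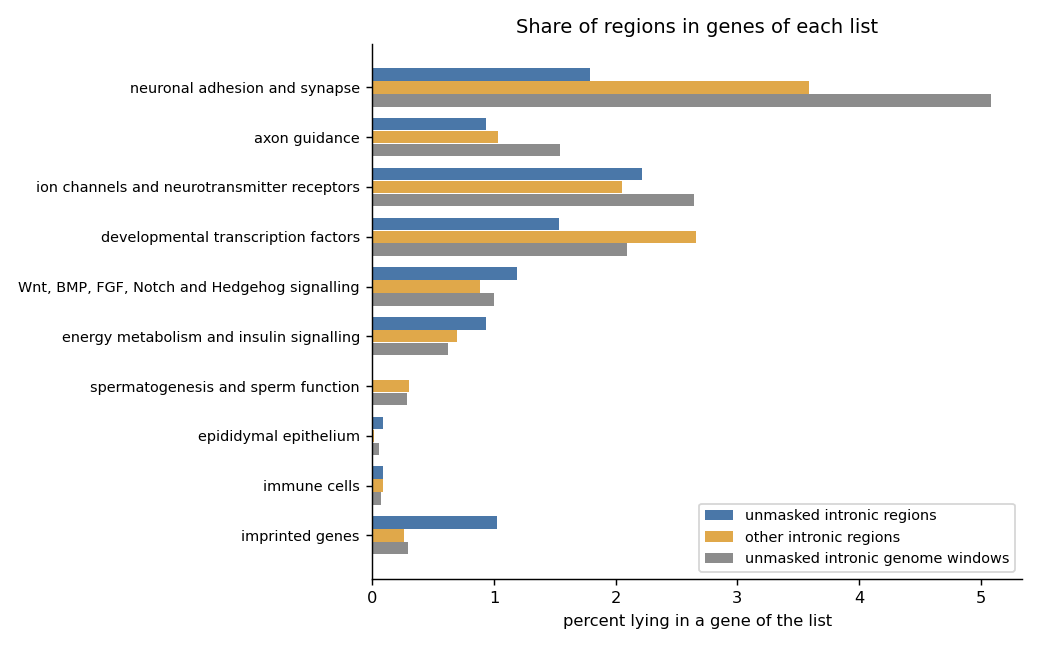
Percent of unmasked intronic regions, of other intronic regions and of genome windows that met the same rules (x axis) whose host gene is in each of 10 gene lists (y axis). Neuronal adhesion and synapse genes hold a smaller share of the regions (1.79%) than of the windows (5.09%), and imprinted genes a larger one (1.02% against 0.291%).

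The cell type of the libraries was checked at gene starts, because the regions themselves held almost none of these genes. A peak within 1 kb of a transcript start in at least 2 libraries was found for 5.77% of 52 spermatogenesis genes, 5.00% of 40 epididymal genes and 5.00% of 40 immune cell genes, against 7.07% of all 20780 protein-coding genes. Per library the shares were 0% to 7.69%, 0% to 7.5% and 0% to 7.5%, and 2.68% to 5.42% for all protein-coding genes. Starts of spermatogenesis genes thus held a peak about as often as starts of the other lists, but these shares rest on 3, 2 and 2 genes. By qPCR the paper detected neither C-Kit nor E-cadherin in its sperm preparations, and it reports high enrichment of a mature sperm marker. It also reports that its control libraries matched sperm ATAC-seq data published earlier. The part of other cells in the results was not tested here.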

How the data were processed

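The data are ATAC-seq libraries of sperm, 6 of F0 CD and 4 of F0 WD. Per the labels and the study's methods, the authors' pipeline used Trim Galore 0.6.10, Bowtie2 2.4.5 on mm10 with several alignments allowed for a read pair, Picard 2.24.0 against duplicates, and SAMtools. Short fragments were kept, and MACS2 2.2.7.1 called the peaks of each library separately, after shifting and extending each read. A read counted at a summit is therefore one that began near it, and both reads of a pair may be counted. The deposited lists hold, for each peak, a score, the fold over local background (a ratio), and −log10 of the p-value and of the q-value as the authors' caller gave them; the largest q-value was 0.0499. Counts and depths are not in the lists used here. Merged regions were annotated with GENCODE M21 and the mm10 sequence, whose lower-case letters were taken as masked repeats (no source used here names the masking program). Reads at the summit were solved from fold = (k + 1)/(background + 1) and the Poisson p where −log10 p was under 60, to a tolerance of 0.001, and 99.994% of the summits tried gave a whole number.

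Fisher's exact test was run over 24763 regions. Differences between diets used the exact permutation test over libraries, and differences between classes the exact sign-flip test, with Benjamini-Hochberg adjustment over 4 and 9 tests. Copies were found with BLAST+ 2.17.0. Python 3.11.15, numpy 2.4.6, scipy 1.17.1 and pandas 2.3.3 were used, and the tests were tested on simulated data. Regions named were the 10 in the most libraries, the 5 with the smallest Fisher p in each direction, those of the 5 hosts with the most regions, up to 3 per gene list, the 3 highest in GC and in CpG ratio and the 3 on either side of the repeat limit; the other regions in all 10 libraries and the host genes of 2 lists were added. The regions, lists and motifs were chosen with earlier results of these data known. Alternatives changed the q threshold, the overlap, the interval, the libraries required, the repeat limit, the distance from starts, the length of the lists, the Fisher p and each library in turn, and, added after seeing the data, kept unique regions alone. Replicate numbers were not used to pair the samples, except in the alternative with the replicate block. Intervals and limits cover counting error only, and where nothing says otherwise p-values measure the spread between these males.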

Additional observations from a re-analysis of the deposited data

How the results depend on the processing

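No difference that passed its test changed its sign under an alternative. Of those that missed the threshold, the Jaccard difference was -0.00201 with under 5% masked bases, -0.00112 with unique regions alone and -0.0021 at the lowest without 1 library (F0 CD 2), the share with a peak against distal regions reached -1.80 with q under 0.001, and the fold against distal regions reached 0.0133 without F0 WD 3. The number of regions was 537 with q under 0.001, 370 with at least 3 libraries, 680 with the same number of best peaks (13366) from every list, and 934 to 1067 without 1 library. Calls in the direction of F0 WD numbered 2 with q under 0.01, 1 with q under 0.001, 2 with lists of equal length and 0 with the replicate block, and 0 to 6 without 1 library (0 without F0 WD 2 and 2 without F0 WD 1). Calls in the direction of F0 CD numbered 3 with q under 0.001, 2 with under 25% masked bases, 5 with the mid-p form of Fisher's test and 0 with the replicate block, and 1 to 6 without 1 library (6 without F0 CD 5). With q under 0.001 the class differences that missed the threshold were summit reads against CA or TG runs (-0.5, exact permutation test, adjusted p = 0.224), and the share with a peak (-4.02, adjusted p = 0.0879, exact) and the fold (-0.0683, adjusted p = 0.164, exact) against other repeats. With at least 3 libraries, where fewer regions were tested, they were -4.97 points (exact, adjusted p = 0.211), -0.216 in fold (0.0527) and -0.75 reads (0.211) against CA or TG runs, and -2.06 points (0.290), -0.0333 in fold (0.418) and -0.55 reads (0.211) against other repeats. Reads against other repeats were -0.5 with lists of equal length (exact, adjusted p = 0.0938) and -0.889 to -0.667 without 1 library (without F0 CD 6 the exact adjusted p was 0.0938). The 4 diet differences missed the threshold in every alternative (adjusted p 0.224 to 1). The cause of these changes was not tested. Between samples of the same replicate number the correlations were -0.00546, 0.0356, -0.00722 and -0.0109. Samples of other numbers gave -0.0421 to 0.0497. Whether samples of the same number shared a batch was not tested. The smallest p that the exact test with the block can give is 0.125.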
